A study of Drosophila melanogaster with 54 samples.

Results

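Sorted mesodermal cells of spi mutant Drosophila melanogaster embryos were compared with those of wild type embryos. The comparison comprised the 3 arrays titled spi loss of function (1A, 1B and 1C) and the 3 wild type GFP positive arrays of the same numbered set (set 1), which were 6 of the 54 arrays of the study. Embryos of both groups carried a twi-GAL4 driver and UAS-GFP, so that cells expressing Twist fluoresced. The stated difference was that the embryos of the first group were spi mutant. The allele, and how mutant embryos were told from their siblings, are not given in the sources used here. Other differences in genetic background between the groups cannot be told apart from loss of spi. The mutation was one of the embryo and was not restricted to the cells that were sorted. Embryos were aged at 25 °C to 5.5 to 7.5 h after egg deposition (stage 11) and dissociated, GFP positive cells were collected by fluorescence-activated sorting, and about 2.5 to 3 µg of total RNA was labelled per array. Other groups are used only for reference, all of them from twi-GAL4, UAS-GFP embryos. They are wild type GFP negative cells, GFP positive cells with activated EGFR (UAS-lambda-Top) or activated FGFR (UAS-lambda-Htl with UAS-Dof) in set 1, and GFP positive cells with activated Ras (UAS-Ras1Act) or activated Pnt (UAS-PntP2VP16) in set 2. Where counts refer to the 9 genotypes of sets 2 and 3, these add activated Armadillo (Arm), Arm with Ras, activated Thickveins (Tkv) and loss of wg in set 2, and activated Notch, loss of lmd and loss of Dl in set 3. Embryos of the last 3 were labelled 6 to 8 h old, and their wild type 5.5 to 7.5 h. The values are log2 expression levels of probe sets on Affymetrix DrosGenome1 arrays, and a difference of 1 is a doubling.

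The gene spi encodes Spitz, a membrane-bound ligand of the epidermal growth factor receptor (EGFR) related to TGF-alpha, which must be carried out of the endoplasmic reticulum by Star and cut by a Rhomboid protease before it can signal. The activated receptor acts through Ras and the MAP kinase cascade on the Ets factors Pointed and Yan, and cells answer with inhibitors such as Argos, Sprouty and the phosphatase Mkp3. In the embryo this signal patterns the ventral ectoderm and the ventral midline, and in the mesoderm it takes part in singling out some muscle progenitors. Other ligands, Keren, Gurken and Vein, activate the same receptor, and the FGF receptor Heartless uses the same cascade in the mesoderm.

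The sorted cells carried the mesodermal label in both groups. The mean log2 level of 13 mesoderm genes was 6.99 to 7.13 on the spi arrays, 6.88 to 7.12 on the wild type arrays and 5.21 to 5.47 on the GFP negative arrays of set 1. The level of twi itself was 7.22, 7.40 and 7.43 with loss of spi and 6.62, 7.28 and 7.18 in wild type, against a mean of 3.25 in GFP negative cells. Across probe sets, which are no independent replicates, arrays of a group correlated at r = 0.937 to 0.94 (spi) and 0.927 to 0.932 (wild type). Hybridization controls were brighter on both arrays with the letter A (9.61 and 10.06) than on the other arrays (7.54 to 7.80), and the part of this difference in the results was not tested beyond leaving that letter out. Whether the 3 arrays of a group came from separate collections of embryos is not stated, and the p-values then reflect only the spread among these arrays, which may be technical. In sorted bulk cells, fewer cells of a type and less RNA per cell cannot be told apart.

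The transcript of spi was abundant in both groups. Its probe set read 9.35, 9.36 and 9.39 with loss of spi and 9.38, 9.31 and 9.40 in wild type, and the groups overlapped (difference 0.00 ± 0.04, standard error throughout, limma adjusted p = 0.995). This value does not test the lesion, since a mutation can leave a transcript that the probes still bind. In activated Ras cells of set 2, which have their own wild type arrays, spi was higher by 0.39 ± 0.06 (adjusted p = 0.000361).

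At an adjusted p under 0.05 in limma, 445 of the 13966 probe sets tested (3.19%) differed between loss of spi and wild type. Of these, 245 were higher (1.75%) and 200 lower (1.43%) with loss of spi. With 1 probe set per gene, 351 of 10843 genes were called (3.24%), 196 higher (1.81%) and 155 lower (1.43%), around a median difference of 0.01. Most called changes were modest, with a median size of 0.77, and 139 of the rises and 128 of the falls were under 1. A smaller number were large, with 52 rises and 26 falls over 2. On 444 of the 445 probe sets the 3 spi arrays did not overlap the 3 wild type arrays, which was so for 24.1% of all probe sets. Called probe sets were also brighter than the rest, with a median level of 6.60 against 4.47. Leaving out spi 1A left 256 calls, spi 1B 262 and spi 1C 232, and leaving out wild type 1A left 295, wild type 1B 416 and wild type 1C 249. Of the 445, 168 kept their call whichever of the 6 arrays was left out, and 104 were also called without the arrays with the letter A.

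The largest rises were of genes that were dim in wild type mesoderm and moderately expressed with loss of spi. Of the 15 largest, 12 had a wild type mean below the lower quartile of all probe sets (2.75). No detection call was used here, and a difference against a level that low is limited by the dim end of the scale, so no fold is given for such genes. The gene CG11600 stood first, at 7.61, 7.40 and 7.52 with loss of spi and 1.30, 0.89 and 1.52 in wild type, a difference of 6.27 ± 0.47 (adjusted p = 8.41e-06). The mutant arrays all lay above 7, and every wild type array was near the dim end of the scale. Fmo-1, a flavin-containing monooxygenase, read 7.23, 6.92 and 7.19 against 2.76, 2.00 and 0.85 (5.24 ± 0.47, adjusted p = 3.71e-05). Klp54D, a kinesin-like protein, read 5.41, 5.59 and 5.13 against -0.10, 0.03 and 0.65 (5.18 ± 0.46, adjusted p = 3.71e-05). For these 3 genes the groups were far apart, and the wild type GFP negative cells were as dim as the GFP positive cells.

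**Figure D1:**
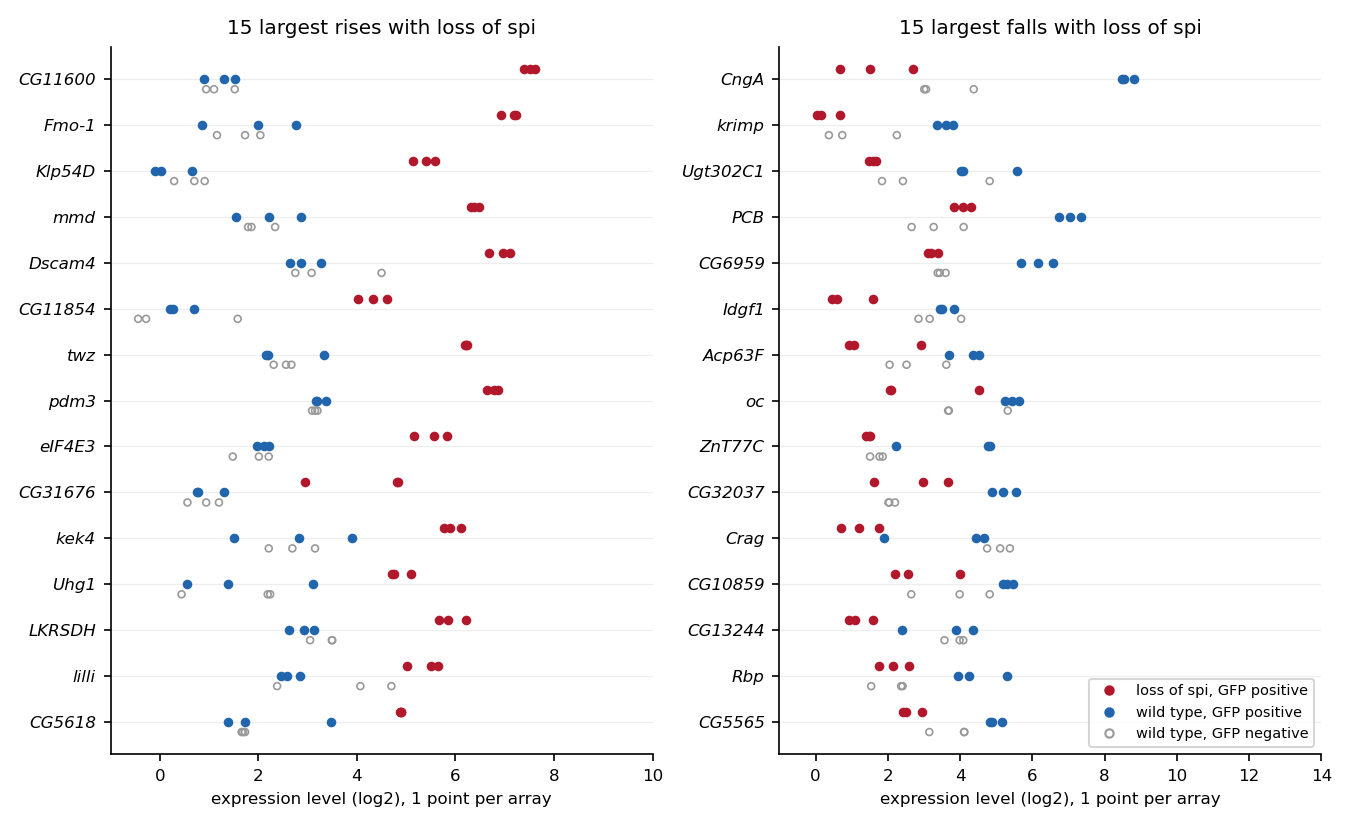
Log2 expression levels of the 15 genes with the largest rise (left) and the 15 with the largest fall (right) with loss of spi, 1 point per array, for loss of spi, wild type GFP positive and wild type GFP negative cells of set 1. CG11600 sits between 7.40 and 7.61 with loss of spi and at 1.52 or below in wild type, while CngA falls from 8.49 or above in wild type to 2.70 or below.

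Cell surface proteins were among these rises. The ADAM metalloprotease gene mmd read 6.38, 6.47 and 6.31 with loss of spi and 2.87, 1.54 and 2.21 in wild type (4.18 ± 0.56, adjusted p = 0.000827), and a second probe set of mmd rose by 3.94 ± 0.31 (adjusted p = 1.09e-05). Another probe set differed by 1.99 and was not called (adjusted p = 0.129). Dscam4, an immunoglobulin superfamily member, read 6.96, 6.69 and 7.11 against 3.28, 2.87 and 2.64 (3.99 ± 0.44, adjusted p = 0.000144). Its rise was seen on 1 of its 3 probe sets, since the others differed by 0.17 and -0.02. The Kekkon family gene kek4, whose relative kek1 encodes an EGFR inhibitor, read 5.76, 5.88 and 6.11 against 2.82, 1.5 and 3.90 (3.18 ± 0.55, adjusted p = 0.00585). On these 3 called probe sets the groups did not overlap, and kek4 varied most in wild type. A second kek4 probe set read 3.66, 2.45 and 5.09 against 3.53, 4.59 and 2.34, overlapping and without a call (0.24, adjusted p = 0.929).

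Genes of transcriptional regulators were also among the rises. The POU domain factor pdm3 read 6.78, 6.86 and 6.64 with loss of spi and 3.17, 3.38 and 3.18 in wild type (3.52 ± 0.44, 11.5-fold, adjusted p = 0.000463), and its second probe set rose by 3.11 ± 0.43 (adjusted p = 0.00108). Agreement between different probe sets of a gene was uncommon among the calls. Of 77 called genes with several probe sets, 7 had at least 2 called in the same direction, 0 had calls in opposite directions and 70 had 1 call. The BTB domain gene twz read 6.20, 6.21 and 6.23 against 3.34, 2.19 and 2.16 (3.65 ± 0.37, adjusted p = 7.64e-05). In set 2, twz was also higher with activated Ras (2.63, adjusted p = 0.000805), activated Pnt (2.97, adjusted p = 9.75e-05) and Arm with Ras (1.76, adjusted p = 0.0367). The rise of twz was therefore seen both with loss of the ligand and with activation of Ras or Pnt.

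The other large rises were CG11854 (3.93 ± 0.44), the cap-binding factor eIF4E3 (3.42 ± 0.48), CG31676 (3.26 ± 0.44), and LKRSDH, an enzyme of lysine breakdown (3.01 ± 0.39), with adjusted p between 0.000166 and 0.00108. All 4 kept the call without any 1 array, but a second probe set of CG31676 differed by -0.45 and was not called. The remaining 3 were less secure. The snoRNA host gene Uhg1 (3.17 ± 0.72, adjusted p = 0.03) and CG5618 (2.69 ± 0.55, adjusted p = 0.0169) each lost the call in 5 of the 6 fits without 1 array, to at most 0.0969 for Uhg1 without spi 1B and 0.0783 for CG5618 without wild type 1C. Uhg1 kept it without wild type 1C, and CG5618 without wild type 1B. The AF4 family gene lilli (2.77 ± 0.55, adjusted p = 0.0153) lost it without spi 1A, spi 1C or wild type 1C, to at most 0.0605 without spi 1A. In the 9 genotypes of sets 2 and 3, 3 of the 15 were called higher in at least 1 (twz, Dscam4 and Uhg1), against 16.4% of all probe sets. Dscam4 and Uhg1 were higher with loss of wg, by 2.38 and 5.97, and Uhg1 also with activated Tkv, by 4.76.

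The largest fall of a named gene was that of CngA, which encodes a cyclic nucleotide-gated ion channel subunit. It read 0.69, 1.51 and 2.70 with loss of spi and 8.49, 8.82 and 8.53 in wild type, with 4.38, 3.01 and 3.06 in GFP negative cells (-6.98 ± 0.44, adjusted p = 1.51e-06). Wild type mesoderm thus stood well above both other groups. The fall was seen on 1 of the gene's 2 probe sets, and the other differed by -0.19. CngA was also lower with loss of wg in set 2 (-3.75, adjusted p = 0.000723) and, against the same wild type arrays as used here, with activated EGFR (-1.79, adjusted p = 0.0453). A probe set without a gene symbol, 152483_at, singled out after its values were seen, had the smallest p of all. It read 2.62, 2.27 and 2.59 with loss of spi and 9.03, 9.01 and 9.08 in wild type (-6.55 ± 0.13, adjusted p = 5.99e-13). Both groups were tight and far apart, with GFP negative cells in between at a mean of 6.01. It was also lower in set 2 with activated Ras (-2.76) and activated Pnt (-2.52), and its lowest difference among the 9 genotypes of sets 2 and 3 was -6.18, with loss of Dl.

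Among the other large falls were genes of metabolism and secretion. PCB, the pyruvate carboxylase gene, read 3.84, 4.31 and 4.09 with loss of spi and 7.04, 7.35 and 6.74 in wild type (-2.96 ± 0.29, 7.79-fold lower, adjusted p = 6.36e-05). In wild type cells of sets 2 and 3, PCB was higher in GFP positive than in GFP negative cells by 2.29 (adjusted p = 0.00431), so it was a mesoderm-enriched gene that fell. CG6959 read 3.21, 3.38 and 3.11 against 5.70, 6.58 and 6.16 (-2.91 ± 0.28, adjusted p = 5.86e-05), down to the level of GFP negative cells (3.38 to 3.60). Idgf1, a chitinase-like secreted growth factor, read 0.46, 1.58 and 0.59 against 3.51, 3.45 and 3.84 (-2.72 ± 0.43, adjusted p = 0.0028). The groups were apart for these 3 genes. CG6959 was also lower with activated EGFR (-2.68) and activated FGFR (-2.61), which share the wild type arrays of set 1 and were called lower on 1.43% and 0.974% of all probe sets.

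The other 11 of the 15 largest falls were weaker in 1 respect or another. The piRNA pathway gene krimp read 0.16, 0.04 and 0.68 against 3.80, 3.60 and 3.36 (-3.29 ± 0.48, adjusted p = 0.00168), and it kept its call without any 1 array, although both groups were dim. Like CG6959, krimp (-3.08 and -2.41), CG32037 (-3.26 and -2.60) and Rbp (-2.34 and -2.11) were also called lower with activated EGFR and activated FGFR, against the same wild type arrays. The synaptic gene Rbp fell by 2.34 ± 0.47 (adjusted p = 0.0156) and lost the call without spi 1A, spi 1B or wild type 1A, to at most 0.0672. Its other probe sets differed by -0.57 and -0.94. The remaining 9 had adjusted p from 0.0218 to 0.049 and lost the call without most arrays. The UDP-glycosyltransferase gene Ugt302C1 (-2.99) and CG5565 (-2.33) lost it without any 1 of the 6 arrays, to at most 0.124 and 0.113, both without spi 1B. The other 7 lost it in 5 of the 6 fits. Acp63F (-2.57) and oc (-2.55) kept it only without spi 1C and reached 0.149 and 0.155 without spi 1B. Crag (-2.44) and CG13244 (-2.35) kept it only without wild type 1C and reached 0.15 and 0.157 without wild type 1A. The zinc transporter gene ZnT77C (-2.49) kept it only without wild type 1A (0.179 without wild type 1C) and CG32037 (-2.47) only without spi 1A (0.134 without spi 1C). CG10859 (-2.40) kept the call only without spi 1B (0.0874 without spi 1A). Another probe set of CG10859 differed by -0.33, with overlapping arrays and no call (adjusted p = 0.814). Of the 15, 10 had a spi mean below 2.75, and 6 were called lower in at least 1 of the 9 genotypes of sets 2 and 3, against 22.8% of all probe sets.

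The comparison bears on whether the pathway's own genes depend on its ligand in the mesoderm at this stage. Few of them were called. Of 3 measured EGFR ligand genes none was called, with Krn at -0.37 and grk at -0.10 beside spi, and neither was S (Star), at 0.16, the 1 measured gene of ligand processing. Egfr itself differed by 0.04 ± 0.13, and its secreted inhibitor aos and transmembrane inhibitor kek1 by 0.51 ± 0.63 and -0.09 ± 0.81, again without a call. The wild type arrays read 3.22, 4.24 and 0.91 for aos and 2.84, 2.67 and 5.20 for kek1. With that spread, the values cannot decide whether aos and kek1 depend on spi. The counts of called pathway genes stood against 3.24% of all genes called.

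Of 9 measured genes of the Ras cascade, Cbl rose. It encodes a ubiquitin ligase that downregulates the activated receptor, and read 8.81, 8.86 and 8.75 with loss of spi and 8.22, 8.17 and 8.24 in wild type (0.59 ± 0.06, 1.51-fold, adjusted p = 4.63e-05). All mutant arrays lay above all wild type arrays. Cbl was also higher with activated Ras in set 2 (0.92, adjusted p = 0.000173), and with activated EGFR and activated FGFR against the same wild type arrays (0.60 in each, with 1.32% and 1.23% of all genes called higher). A second, dimmer Cbl probe set differed by -0.63 without a call, and the mean over both probe sets gave -0.02 (adjusted p = 0.965). The adaptor gene dos read 6.05, 6.05 and 6.36 against 4.90, 5.64 and 5.30 (0.88 ± 0.23) and missed the threshold (adjusted p = 0.0563). The adaptor drk, the exchange factor Sos, the MAP kinase kinase Dsor1, the phosphatase csw, the scaffolds ksr and cnk and 14-3-3zeta lay between -0.09 and 0.18, with no call.

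Of 13 genes that EGFR or Ras signalling induces or that feed back on it, 2 fell and none rose. The median was -0.34, with 10 of 13 below 0, against a median of 0.01 and 48.9% below 0 for all genes. Mkp3, the MAP kinase phosphatase, read 6.38, 6.23 and 6.07 with loss of spi and 7.13, 6.67 and 6.96 in wild type (-0.69 ± 0.14, 1.62-fold lower, adjusted p = 0.0156). The groups did not overlap, but the call was lost without spi 1C, wild type 1A or wild type 1C, to at most 0.0708. In set 2, Mkp3 was higher with activated Ras (0.86, adjusted p = 0.0483) and activated Pnt (0.85, adjusted p = 0.0317), while with activated EGFR it differed by -0.02. The homeobox gene oc read 2.08, 2.05 and 4.52 against 5.63, 5.44 and 5.24, and its call (adjusted p = 0.0413) was lost without any array but spi 1C, to at most 0.155 without spi 1B. With activated Ras, activated Pnt and activated EGFR, oc was not higher but differed by -1.50, -0.62 and -1.06, without a call.

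The other feedback genes and targets were not called. Sprouty (sty), an inhibitor of receptor tyrosine kinase signalling, read 8.33, 8.03 and 8.15 with loss of spi and 8.30, 8.28 and 8.33 in wild type (-0.13 ± 0.09, adjusted p = 0.481). The gene of the Yan repressor, aop, read 9.87, 9.84 and 9.89 against 9.96, 10.05 and 9.95 (-0.12, adjusted p = 0.326), apart but by little. The gene of the Yan antagonist edl read 8.46, 8.53 and 8.64 against 8.34, 8.67 and 8.37 (0.08), with overlapping arrays. With activated Ras in set 2 these 3 genes were higher by 1.08, 1.68 and 1.17, and in all 5 of the 13 were called higher there, 3 with activated Pnt and 4 with activated EGFR, against 2.54%, 4.09% and 1.32% of all genes. The remaining members, phyl, tup, Lim1, tll, kek2, salm, salr and mirr, lay between -0.64 and 0.38 with loss of spi. Without the arrays with the letter A, the list's median was -0.22 and no member was called.

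**Figure D2:**
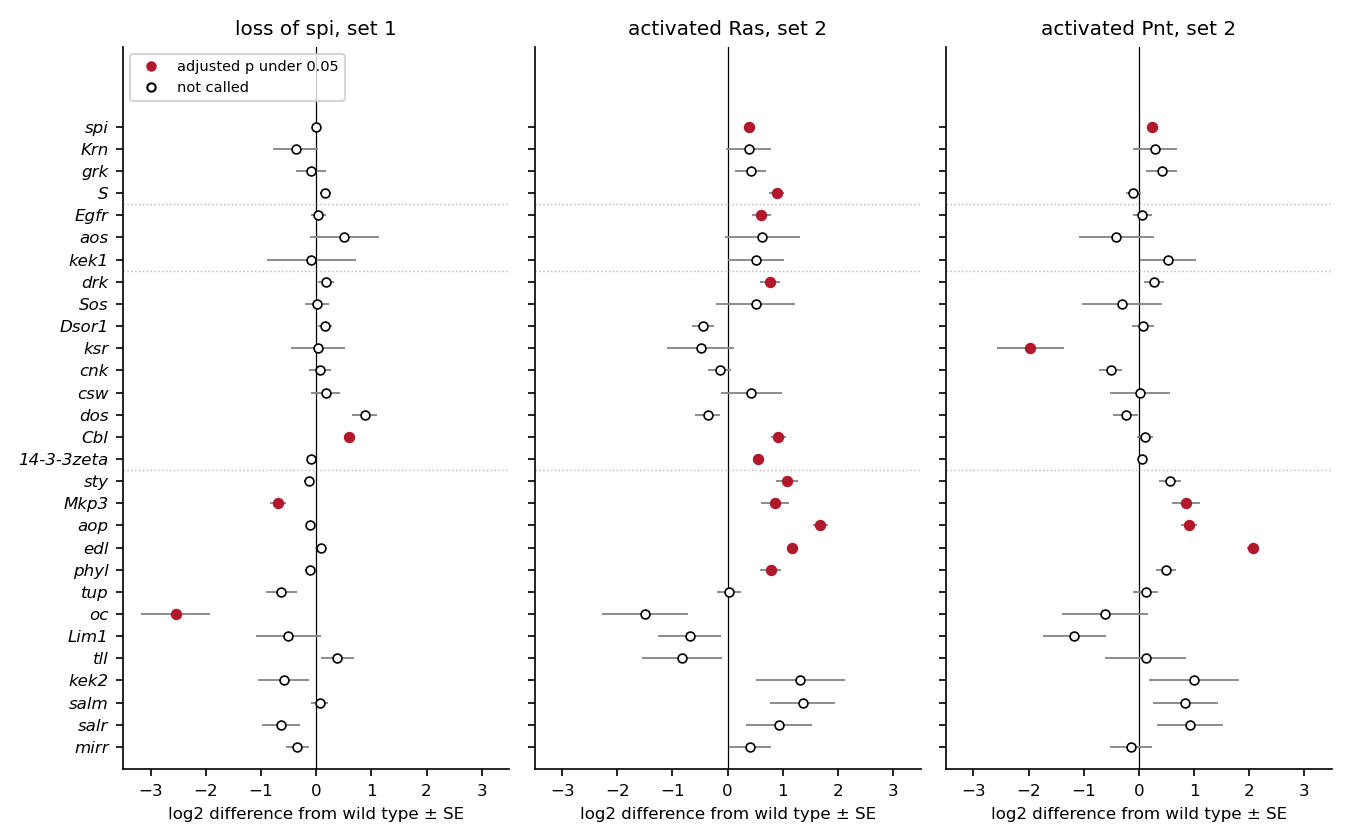
Log2 differences from wild type ± SE (3 arrays per group) for genes of the EGFR pathway with loss of spi (set 1), activated Ras and activated Pnt (set 2), in the order ligands and processing, receptor and extracellular inhibitors, Ras cascade, and feedback and targets. Filled points are called at adjusted p under 0.05, which with loss of spi was the case for Cbl (0.59), Mkp3 (-0.69) and oc (-2.55).

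Of 26 founder cell genes, which include identity factors of single muscles, 1 rose and 1 fell, with a median of 0.02. Of all genes 1.81% rose and 1.43% fell, around a median of 0.01, and both founder calls depended on single arrays. The homeobox gene Six4 read 5.41, 4.94 and 5.55 with loss of spi and 2.83, 3.59 and 3.17 in wild type (2.11 ± 0.51, adjusted p = 0.0382), and lost the call without any 1 of the 6 arrays, to at most 0.133 without spi 1C. The zinc finger gene Kr read 4.76, 4.49 and 5.43 against 6.04, 5.38 and 6.36 (-1.03 ± 0.24, adjusted p = 0.0355). It was the 1 called probe set whose groups overlapped, and it lost the call without spi 1A, spi 1B, wild type 1A or wild type 1C, to at most 0.144.

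The homeobox gene eve, which marks dorsal progenitors, read 6.63, 6.74 and 6.69 with loss of spi and 7.13, 6.58 and 6.80 in wild type (-0.15 ± 0.15, adjusted p = 0.66). Its arrays overlapped, and it was higher with activated Ras in set 2 by 0.72 (adjusted p = 0.016). The muscle identity factor slou differed by 0.41, kn by -0.29 and nau by -0.70, with adjusted p from 0.366 to 0.721. No call was made among 7 fusion-competent myoblast genes, where lmd, the Gli-related regulator of these cells, read 9.40, 9.42 and 9.52 against 9.54, 9.56 and 9.59 (-0.12, adjusted p = 0.555). The FGF pathway (5 genes, 0 called), which includes the receptor gene htl at 0.37, and the visceral mesoderm (6 genes, 0 called) likewise gave no call. Act79B, a muscle actin gene, fell by 0.52 ± 0.10 (adjusted p = 0.0121), 1 of 10 muscle structural genes, and lost the call without spi 1B (0.0563).

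Within the mesoderm list of 13 genes, 2 fell and 1 rose, against 1.43% and 1.81% of all genes. The zinc finger homeodomain gene zfh1 read 7.30, 6.93 and 7.08 with loss of spi and 8.35, 8.10 and 8.20 in wild type (-1.12 ± 0.13, 2.17-fold lower, adjusted p = 0.000344). The mutant arrays lay between the wild type GFP positive arrays and the GFP negative ones (6.85, 6.34 and 6.69), close to the latter. Among the 12 heart and dorsal mesoderm genes, zfh1 was the 1 call. The repressor gene sna, needed for mesoderm formation and later expressed in neuroblasts, read 7.68, 7.86 and 7.64 against 8.46, 8.38 and 8.50 (-0.72 ± 0.07, adjusted p = 7.64e-05). Its level in GFP negative cells averaged 8.64, so sna was not a marker of the sorted cells at this stage. The adhesion gene CadN rose from 7.35, 7.21 and 7.28 to 7.77, 7.72 and 7.71 (0.46 ± 0.10, adjusted p = 0.0192), and lost the call without any array but wild type 1A, to at most 0.0739 without spi 1A. The list's median was 0.33, and -0.05 without the arrays with the letter A, where 8 of 13 and 6 of 13 members lay above 0.

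Genes of blood cells and fat body, which also derive from the mesoderm, went both ways. Of 20, 1 rose and 1 fell, against 1.81% and 1.43% of all genes, and 13 did not overlap between the groups, against 24.7%. The median was -0.19, and 13 of the 20 lay below 0, against 0.01 and 48.9% for all genes. PPO2, a prophenoloxidase of crystal cells, read 8.53, 8.44 and 8.60 with loss of spi and 9.13, 9.25 and 9.26 in wild type (-0.69 ± 0.06, adjusted p = 4.27e-05). The transcription factor gene gcm, active in early hemocytes and in glia, read 8.61, 8.48 and 8.50 against 7.88, 8.04 and 7.88 (0.59 ± 0.07, adjusted p = 0.000416). Both calls held without any 1 array. Of the uncalled members, the GATA factor srp was at 8.21, 8.11 and 8.10 against 7.74, 7.56 and 7.65 (0.49 ± 0.14, adjusted p = 0.0914), apart and higher. The peroxidasin gene Pxn was at 8.01, 7.99 and 8.15 against 8.75, 8.69 and 8.64 (-0.65 ± 0.22, adjusted p = 0.138), apart and lower.

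Neural genes gave more falls than rises. Of 20 neuroblast, neuron and glia genes 5 fell and none rose, against 1.43% and 1.81% of all genes. The median was -0.50, 19 of the 20 lay below 0, against 48.9% of all genes, and 13 did not overlap between the groups, against 24.7%. The homeobox gene pros, which drives differentiation of neural daughter cells, read 6.71, 6.53 and 6.92 with loss of spi, 7.90, 7.87 and 8.11 in wild type and 8.78, 8.55 and 8.62 in GFP negative cells (-1.24 ± 0.11, 2.37-fold lower, adjusted p = 3.71e-05). The Snail family neuroblast gene wor read 6.50, 6.47 and 6.00, against 7.29, 7.22 and 7.24 in wild type and 7.69, 7.50 and 7.63 in GFP negative cells (-0.92 ± 0.12, adjusted p = 0.000564). For both genes the order of the 3 groups was GFP negative, wild type GFP positive, then loss of spi, with no overlap.

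The zinc finger gene nerfin-1, expressed in newborn neurons, read 6.67, 6.73 and 6.46 with loss of spi and 7.39, 7.25 and 7.37 in wild type (-0.72 ± 0.10, adjusted p = 0.00144), and its second probe set fell by 0.74 ± 0.14 (adjusted p = 0.0123). The POU domain gene nub read 5.53, 5.57 and 5.80 against 6.58, 6.38 and 6.46 (-0.84 ± 0.14, adjusted p = 0.00355), with adjusted p = 0.139 without the arrays with the letter A. The gene mira, for the adaptor that carries Prospero in dividing neuroblasts, read 8.08, 8.16 and 8.14 against 8.51, 8.53 and 8.49 (-0.38 ± 0.08, adjusted p = 0.0228). Each of these genes was lower on every mutant array, and mira lost its call without any 1 array, to at most 0.0874. The pan-neuronal gene elav, at 6.83, 6.81 and 6.87 against 7.20, 7.57 and 7.33 (-0.53 ± 0.16, adjusted p = 0.105), was apart and missed the threshold, as did cas (-0.92, adjusted p = 0.0797) and D (-0.73, adjusted p = 0.0908). SoxN, at 0.08, was the member above 0.

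**Figure D3:**
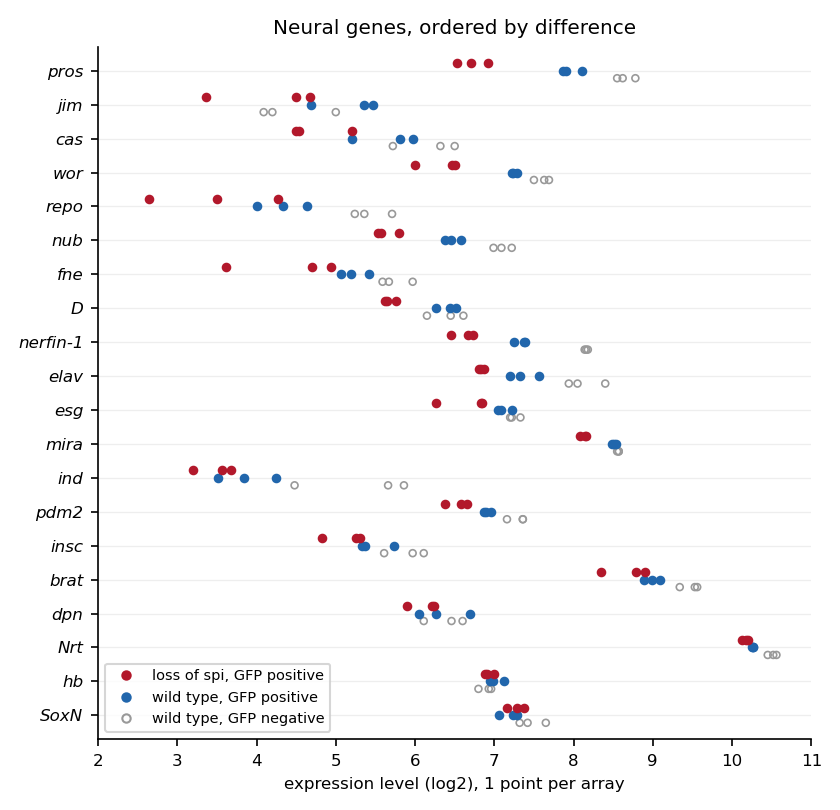
Log2 expression levels of the 20 neural genes, ordered by difference, 1 point per array for loss of spi, wild type GFP positive and wild type GFP negative cells of set 1. For pros, wor, nerfin-1 and nub the mutant arrays lie lowest and the GFP negative arrays highest, and SoxN is the gene whose mean is above wild type.

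The summed level of neural markers in the sorted cells moved with these calls. The mean over the 20 genes was 6.11, 6.31 and 6.14 with loss of spi, 6.70, 6.74 and 6.79 in wild type, and 7.03, 7.21 and 7.20 in GFP negative cells. Ectoderm genes, the other main class outside the gate, gave 0 calls of 16 with a median of -0.16. Of the 16, 9 lay below 0 and 6 did not overlap between the groups, against 48.9% and 24.7% of all genes. Their mean level was 6.23 to 6.25 with loss of spi and 5.97 to 6.46 in wild type, overlapping, against 7.23 to 7.54 in GFP negative cells. No gene was called among 7 proneural, 5 midline and 6 endoderm and yolk genes. The midline list had a median of 0.72, with 3 genes above 0 and 2 below. Its member btd, a zinc finger gene, read 6.99, 6.48 and 6.57 with loss of spi and 5.93, 5.47 and 5.95 in wild type (0.90 ± 0.24, adjusted p = 0.0612), apart without a call. Another member, sli, read 4.92, 2.24 and 4.61 against 4.95, 5.13 and 5.38 (-1.23 ± 0.51, adjusted p = 0.233), apart and lower, also without a call. The part of neural cells in the sorted population in the falls of neural genes was not tested.

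**Figure D4:**
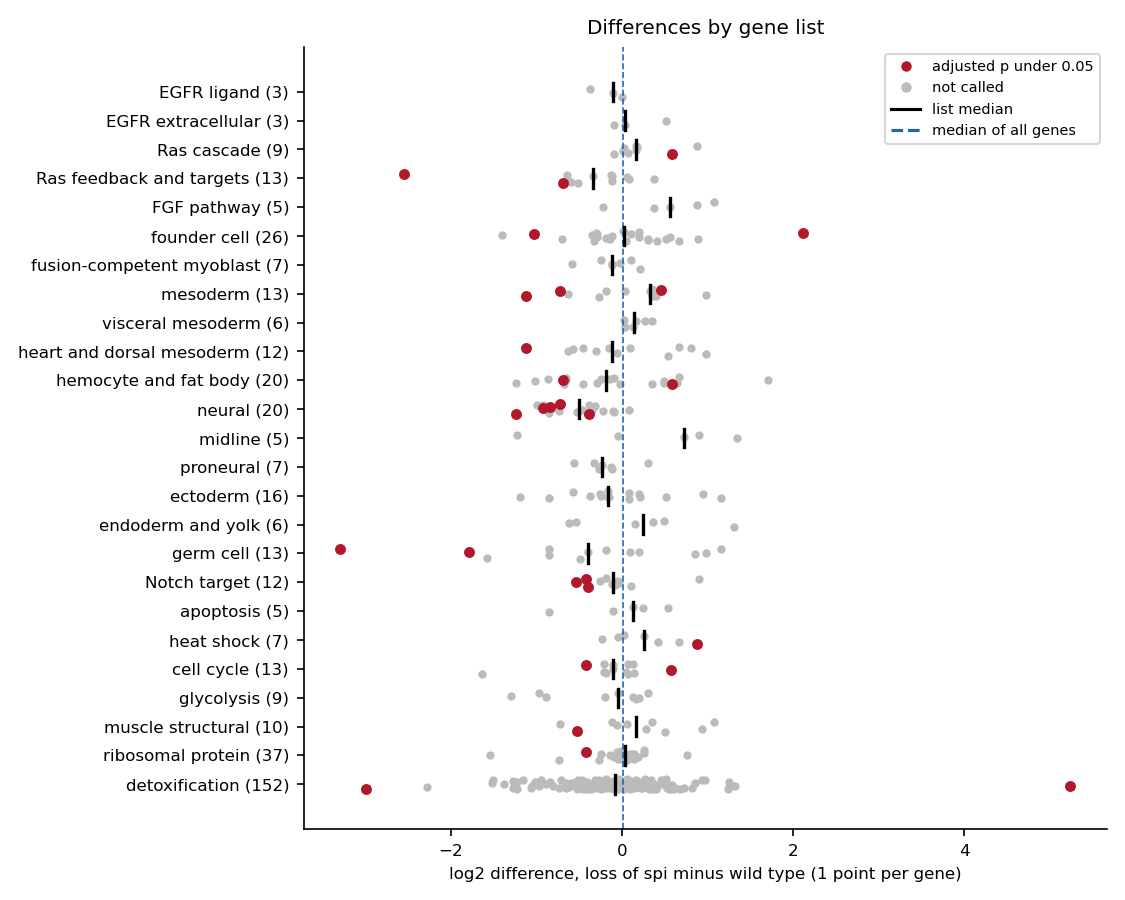
Log2 differences between loss of spi and wild type for the genes of 25 lists, 1 point per gene, with the number of measured genes in brackets, called genes in red, the median of each list as a bar and the median of all genes (0.01) as a dashed line. The neural list lies left of the dashed line with 5 called genes, while most lists straddle it.

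Smaller movements were seen in other groups, whose counts stand against 1.43% of all genes lower and 1.81% higher. Of 12 Notch target genes 3 fell, which were the bHLH repressor genes E(spl)mbeta-HLH and E(spl)m3-HLH and the Bearded family gene Ocho. E(spl)mbeta-HLH read 8.99, 8.83 and 8.92 with loss of spi and 9.41, 9.36 and 9.59 in wild type (-0.54 ± 0.07, adjusted p = 0.000678), and was higher with activated Ras in set 2 (0.57, adjusted p = 0.001). E(spl)m3-HLH fell by 0.40 ± 0.07 (adjusted p = 0.00696) and Ocho by 0.42 ± 0.08 (adjusted p = 0.0135, and 0.0594 without spi 1A), and without the letter A 1 of the 12 genes was called. Of 13 germ cell genes 2 fell, krimp and the innexin gene zpg, which read 3.31, 3.40 and 3.41 against 5.11, 5.35 and 5.0 (-1.78 ± 0.41, adjusted p = 0.03). The zpg call was lost without any 1 array, to at most 0.0884, and the germ cell marker vas differed by -0.40 ± 1.10.

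Of 7 heat shock genes the co-chaperone gene DnaJ-1 rose, from 7.81, 7.72 and 7.51 to 8.48, 8.61 and 8.60 (0.88 ± 0.11, adjusted p = 0.00043). Its arrays were apart, and those of Hsp68, at 6.70, 6.81 and 6.80 against 6.21, 6.51 and 6.32, were apart without a call (0.42, adjusted p = 0.235). Of 13 cell cycle genes, CycD rose by 0.57 ± 0.13 (adjusted p = 0.03) and E2f1 fell by 0.42 ± 0.10 (adjusted p = 0.0377). Both calls were fragile, since CycD lost its call without any array but wild type 1B, to at most 0.118 without wild type 1C. E2f1 lost it without spi 1A, spi 1B, wild type 1B or wild type 1C, to at most 0.15 without wild type 1C. None of 5 cell death genes and 9 glycolysis genes was called. Of 37 ribosomal protein genes RpS29 fell (-0.42 ± 0.07, adjusted p = 0.00602), and of 152 detoxification genes Fmo-1 rose and Ugt302C1 fell.

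Whether the genes that changed were mesodermal or not could be read from wild type cells of sets 2 and 3, which share no array with this comparison. Of all probe sets, 4.91% were higher and 4.78% lower in GFP positive than in GFP negative cells there. Of the 245 that rose with loss of spi, 38 (15.5%) were higher and 9 (3.67%) lower in GFP positive cells. Of the 200 that fell, 25 (12.5%) were higher and 48 (24.0%) lower. Most called probe sets thus had no call for the gate, the rises held more mesoderm-enriched probe sets than depleted ones, and the falls held more depleted ones. Taken as shares of the gate's own calls, the rises and falls made up 5.54% and 3.64% of the 686 enriched probe sets, and 1.35% and 7.19% of the 668 depleted ones. Probe sets called with loss of spi were brighter than all probe sets (median level 6.60 against 4.47). The part of brightness in these shares, and in those for activated Ras and Pnt below, was not tested.

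**Figure D5:**
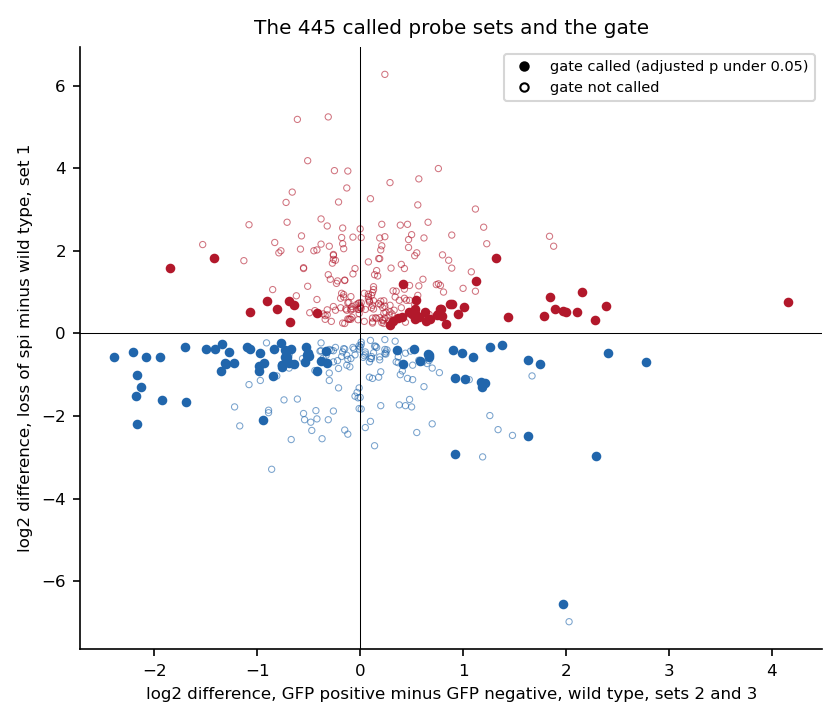
Log2 difference with loss of spi (set 1) against the log2 difference between GFP positive and GFP negative wild type cells (sets 2 and 3) for the 445 called probe sets, red for rises and blue for falls, filled where the gate difference is called too. Of the 200 falls 48 are filled on the left of 0 and 25 on the right, and of the 245 rises 9 and 38.

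Activated Ras in set 2, against its own wild type arrays, was called higher on 2.47% and lower on 2.12% of all probe sets. Of the 245 rises with loss of spi, 27 (11.0%) were higher and 11 (4.49%) lower with activated Ras, and of the 200 falls 17 (8.50%) were higher and 21 (10.5%) lower. The 27 and the 21, which moved the same way under loss of the ligand and activation of Ras, outnumbered the 11 and the 17, which moved in opposite ways. The first kind included Cbl, twz, the engulfment receptor gene drpr (0.39 and 0.85) and the lysosomal gene GILT2 (0.87 and 0.96) among the rises, and the repressor gene hry (-1.10 and -1.55) among the falls. The second kind included the nucleolar gene Fib (0.23 and -0.93), and, lower with loss of spi, the paxillin gene Pax (-0.77 and 0.99), sna (-0.72 and 0.70), PPO2 (-0.69 and 0.90), jing (-0.60 and 0.92) and Mkp3. With loss of spi, GILT2 and Fib each lost the call without any array but wild type 1B, to at most 0.104 and 0.122, both without wild type 1C. Pax lost it without spi 1A, spi 1C, wild type 1A or wild type 1B, to at most 0.12 without spi 1C.

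Activated Pnt was called higher on 3.87% and lower on 4.98% of all probe sets. Of the rises with loss of spi, 37 (15.1%) were higher and 30 (12.2%) lower with activated Pnt, and of the falls 14 (7.0%) were higher and 55 (27.5%) lower. These shares are descriptions, and the differences between them were not tested. As shares of the other calls, the rises and falls made up 7.83% and 4.93% of those higher with activated Ras, and 6.84% and 2.59% of those higher with activated Pnt. They made up 3.72% and 7.09% of those lower with activated Ras, and 4.32% and 7.91% of those lower with activated Pnt.

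The shares of called genes by chromosome arm, in the RefSeq annotation of Release 6 plus ISO1 MT, were highest on chromosome 2, which carries spi. They were 4.10% on 2L (81 of 1976), 3.91% on 2R (85 of 2176), 2.99% on 3L, 2.87% on 3R, 2.38% on X and 1.75% on 4, against 3.24% of all genes. The differences between arms, and the part of background linked to the mutant chromosome, were not tested. Among the 100 measured genes nearest to spi on 2L, 6 were called, which were Pax, gammaTub37C, CG13083, msb1l, sick and La, with 2 higher and 4 lower. Of these, gammaTub37C, a maternal gamma-tubulin gene, read 4.42, 4.78 and 4.21 with loss of spi and 5.89, 5.49 and 5.32 in wild type (-1.09 ± 0.22, adjusted p = 0.0145), and lost the call without spi 1A, spi 1C or wild type 1A, to at most 0.064. La, an RNA-binding protein gene, read 6.81, 6.75 and 6.82 against 5.49, 5.66 and 5.70 (1.18 ± 0.21, adjusted p = 0.00694) and kept it. The 15 largest rises lay on 2L (4), 2R (5), 3L (3), 3R (2) and X (1). The 15 largest falls lay on 2L (4), 2R (3), 3L (3), 3R (3) and X (2). Of the 10843 measured genes, 1976 lay on 2L, 2176 on 2R, 2106 on 3L, 2720 on 3R and 1763 on X.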

How the data were processed

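The deposited table holds log2 expression values of 14010 probe sets, for which the submitters' processing notes name affy. Its version, background correction, normalization and summary are not given in the sources used here, and the log base was inferred from the values (-3.076 to 13.581). Array medians differed between the numbered sets, so levels were compared within a set. After 44 control probe sets were left out, 13966 were tested, 12442 of them with 1 gene symbol. Limma 3.58.1 in R 4.3.3 fitted 1 mean per group over the 15 arrays of set 1, with moderated variances and a trend (lmFit, eBayes). P-values are two-sided and Benjamini-Hochberg adjusted over all probe sets, with a threshold of 0.05. The genotypes of sets 2 and 3 were fitted in the same way, each set by itself. The difference between GFP positive and GFP negative cells (the gate) was fitted otherwise. It used only the wild type arrays of sets 2 and 3 together, with 1 GFP effect and the set as a block. The fit was tested on simulated data. Precision is limited by the 3 arrays per group.

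For each gene the brightest probe set (mean over 54 arrays) was used, and for the largest changes the called probe set itself. The named genes are spi, the 15 largest rises and 15 largest falls with arrays apart, called members of the pathway, muscle, mesoderm and neural lists, up to 4 of each other list, and uncalled pathway genes. Others named were chosen after their values were seen. The members, lists and tests were chosen with earlier results of these data known. Lists share genes. Arrays were not paired by replicate letter. Across all probe sets, deviations of same-letter spi and wild type arrays hardly correlated (0.025, 0 and -0.014), and a batch shared by a letter was not tested. Not analysed here were N, wg, pnt, Dl, arm, stumps and Ras85D. Tables and figures were made in Python 3.11.15 with numpy 2.4.6, pandas 2.3.3 and matplotlib 3.10.9.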

Additional observations from a re-analysis of the deposited data

How the results depend on the processing

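The total of 445 called probe sets (245 higher, 200 lower) was 203 (116 and 87) without the variance trend, 127 (68 and 59) when the letter A was left out, and 291, with 121 lower, at a change of at least 1.5-fold. Leaving out 1 array gave 232 to 416 calls, 110 to 250 higher and 119 to 166 lower. These counts fall partly by construction, since fewer arrays or a stricter rule enter, and for the variance trend the cause was not tested. The other settings stayed within 1.5 times. Counts were 317 for the 6 arrays alone and 584 with the replicate letter as a block (replicate block). They were 443 after quantile normalization and 449 after centring each array on its median. Brighter probe sets only gave 516 and means over the probe sets of a gene 335, but fewer features were tested in both, so the shares called differ from these counts. With the eIF-4a control's difference between its 3′ and 5′ probe sets as covariate, 415 were called. That difference averaged 1.88 with loss of spi and 1.86 in wild type. For the GAPDH control it averaged -0.10 and 0.44, with overlapping arrays, and GAPDH was not used as covariate. Centring gave 218 higher and 231 lower, where the median over all probe sets shifted by -0.03. In sets 2 and 3 the gate's 1354 calls were 578 in set 3 alone and 971 to 1454 without 1 array, and the 641 calls of activated Ras were 394 without the variance trend. Cbl was the 1 named gene that reversed, at -0.02 as the mean over its probe sets. Of 53 named calls, 30 held whichever array was left out, 25 without the letter A, 32 without the variance trend and 38 with the 6 arrays alone. As means over the probe sets of a gene 45 held, with the eIF-4a covariate 48, and under centring all 53. The labels give no pairing of the arrays, so the block is no paired analysis. Hybridization controls were brighter on both arrays with the letter A, and whether a letter marks a batch was not tested. With the block 8 of 20 neural genes were called lower, and without the letter A 3 were.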

Other observations

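Genes described here were chosen after their values were seen. Several well-measured genes changed with little spread and held without any 1 array. The C-type lectin gene nw read 6.86, 6.87 and 6.92 with loss of spi and 8.52, 8.41 and 8.55 in wild type (-1.61 ± 0.06, limma adjusted p = 1.6e-09), and 10.31 on average in GFP negative cells. Lime, a zinc finger gene, read 8.62, 8.60 and 8.60 against 6.78, 6.82 and 6.74 (1.82 ± 0.13, adjusted p = 6.14e-06). The amino acid transporter gene path read 7.86, 7.78 and 7.92 against 9.03, 8.94 and 9.09 (-1.17 ± 0.09, adjusted p = 8.41e-06). The Polycomb group gene escl rose by 1.21 ± 0.11 (adjusted p = 4.27e-05), the pair-rule repressor gene hry read 7.67, 8.05 and 7.77 against 8.84, 9.03 and 8.93 (-1.10 ± 0.12, adjusted p = 0.000144), and the TOR pathway inhibitor gene scyl fell by 0.92 ± 0.10. The groups did not overlap for any of these 6 genes. Lower with loss of spi too were toy (-1.31), a Pax6 gene, insb (-0.70), the netrin gene NetB (-0.47) and tkv (-0.39), which encodes a Dpp receptor and lost its call without spi 1A, spi 1C, wild type 1B or wild type 1C, to at most 0.0866.

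Genes of protein folding in the endoplasmic reticulum were higher in 5 of 9 cases, with shv (0.70 ± 0.08), Herp (0.69), CaBP1 (0.46), Gp93 (0.35) and ERp60 (0.29), and 8 of 9 lay above 0. Only shv and CaBP1 kept the call whichever array was left out. Herp lost it without any 1 array (to at most 0.0969, without spi 1B), Gp93 in 4 fits (0.144 without wild type 1C) and ERp60 in 5 (0.151 without spi 1C). Genes of protein entry into that compartment were higher in 4 of 13, with Sec61gamma (0.43), SrpRalpha (0.37), Spase12 (0.35) and Sec61beta (0.28). None of these 4 kept the call whichever array was left out, with adjusted p up to 0.0574 (without wild type 1A), 0.091 and 0.0912 (both without spi 1B) and 0.112 (without wild type 1C), and 1 of the 13 was called without the letter A. Translation initiation factor subunits of the eIF3 complex were lower in 4 of 16, with eIF3b (-0.61 ± 0.06), eIF3m (-0.34), eIF3a (-0.31) and eIF3g1 (-0.21), and 13 lay below 0. Here eIF3b and eIF3m kept the call, eIF3a lost it without any 1 array (0.129 without wild type 1C) and eIF3g1 in 5 fits (0.135 without spi 1A). After quantile normalization the counts were 4 of 9 and 2 of 16 for folding and eIF3, and after centring they were 3 of 9 and 4 of 16. All 8 engulfment genes lay above 0, with drpr (0.39 ± 0.05) and NimC4 (0.32 ± 0.05) called and the scavenger receptor gene Sr-CI at 7.52, 7.65 and 7.40 against 6.20, 6.36 and 5.99 (1.34 ± 0.47, adjusted p = 0.151). Against these counts, 3.24% of all genes were called. Of 7 innexin genes 3 were lower, Inx2 (-0.32), Inx3 (-0.37) and zpg, and none kept the call whichever array was left out (to at most 0.0984 for Inx2 and 0.0824 for Inx3, without spi 1B). Because these groups were chosen for their calls, no test of them was made.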
